A study of Mus musculus with 2 samples.

Results

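The genes described here are Trp53, which codes for the transcription factor p53, and 9 genes that regulate p53 or are known targets of it: Mdm2, Mdm4, Cdkn1a, Ccng1, Trp53inp1, Btg2, Bbc3, Phlda3 and Zmat3. Members were taken by gene symbol, as the transcripts that GENCODE M21 calls protein-coding. This gave 23 coding transcripts of 10 genes, out of 49490 coding transcripts of 21587 genes with a deposited value, and GENCODE lists 25 coding transcripts for these genes. In GRCm38 the genes lie at chr11:69580359-69591873 (Trp53), chr10:117688875-117710758 (Mdm2), chr1:132959484-133030561 (Mdm4), chr17:29090976-29100727 (Cdkn1a), chr11:40748552-40755311 (Ccng1), chr4:11156431-11174379 (Trp53inp1), chr1:134075170-134079120 (Btg2), chr7:16308393-16318205 (Bbc3), chr1:135766119-135769136 (Phlda3) and chr3:32334792-32366014 (Zmat3). All 10 genes passed the minimum on low values, a mean exon value above 1 over both libraries, as did 14493 genes in all.

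The cells were wild-type male mouse embryonic stem cells of the line DTCM23/49 XY, a pluripotent cell type, kept without feeder cells in serum and leukemia inhibitory factor. All RNA came from cells given 200 µM 4-thiouridine (4sU), a uridine analogue built into RNA as it is made, for 10 min. RNA that carried 4sU was pulled out through biotin and sequenced as the labeled library, and the RNA left behind as the unlabeled library, each from replicate 1. With 1 library per pool no difference between them has a replicate check, no SD or p-value can be given, and each comparison describes these 2 libraries. The labels disagree on the second library, which is preexisting RNA by one label and total RNA by the other.

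The p53 protein is held low by Mdm2, a ubiquitin ligase that marks it for degradation, and by Mdm4, a relative of Mdm2 that binds the same part of p53. When DNA is damaged, p53 escapes them and turns on genes that halt the cell cycle, kill the cell, or, like Mdm2 itself, restrain p53 again. p53 finds these genes through a response element made of a pair of similar short sequences.

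Windows around annotated starts were searched for this element, because most of the genes were chosen as targets of p53. RefSeq windows on GRCm38.p6, from 250 bases before to 50 bases after a start, were found for 8 of the 10 genes, 12 windows in all, and none for Trp53inp1 or Zmat3. The p53 response element consensus was searched as 2 abutting decamers on 1 strand, since the consensus reads the same on the other, with CNNG kept in each decamer and at most 3 mismatches in all. Of the 12 windows, 4 held a match, in Cdkn1a, Ccng1, Bbc3 and Trp53, while 1.38% of the 32851 windows of all genes did. The limit of 3 was chosen after matches had been seen, and a match is a description of these letters, not a site shown to be bound. The 4 matches are shown because they let the genes be compared at the bases that p53 recognises.

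Cdkn1a: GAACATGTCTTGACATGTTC
Ccng1: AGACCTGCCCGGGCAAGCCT
Bbc3: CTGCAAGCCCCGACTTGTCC
Trp53: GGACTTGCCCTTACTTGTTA

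The matches of Cdkn1a and Ccng1 had 1 mismatch to the consensus, and those of Bbc3 and Trp53 had 3. At most 1 mismatch was found in 0.0670% of all windows. They began 51 bases before the start in Cdkn1a, 195 in Ccng1, 97 in Bbc3 and 75 in Trp53. Btg2, Mdm2, Mdm4 and Phlda3 had no match in their windows. The single window of Mdm2 lies at its outermost start, and starts further inside the gene, such as that of Mdm2-209, were not searched. The Trp53 window also holds the start of Wrap53, a gene on the other strand. The whole windows of Cdkn1a and Ccng1 follow on the strand of the gene, with the match in capitals, as the closest matches of the group and, for Cdkn1a, because the gene has a second start whose window had none.

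Cdkn1a, chr17:29090729-29091028, plus strand: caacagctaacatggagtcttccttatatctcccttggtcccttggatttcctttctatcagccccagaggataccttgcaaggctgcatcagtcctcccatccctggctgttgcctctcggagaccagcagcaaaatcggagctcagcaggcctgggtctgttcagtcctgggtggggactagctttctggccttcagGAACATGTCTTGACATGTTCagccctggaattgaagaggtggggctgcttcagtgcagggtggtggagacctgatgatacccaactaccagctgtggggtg
Ccng1, chr11:40755237-40755536, minus strand: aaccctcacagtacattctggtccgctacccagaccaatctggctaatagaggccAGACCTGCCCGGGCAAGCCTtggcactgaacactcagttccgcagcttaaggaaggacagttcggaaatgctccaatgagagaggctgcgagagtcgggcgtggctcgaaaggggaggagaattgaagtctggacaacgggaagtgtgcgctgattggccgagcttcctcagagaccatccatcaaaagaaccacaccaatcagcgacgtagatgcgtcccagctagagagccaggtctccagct

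The authors deposited an abundance for the exons and, where a transcript has introns, for the introns of each transcript. They call it TPM, but each library sums to 10000000, so a value is 10 times a usual TPM and is already divided by length. Values below are in this deposited unit, and an exon value of a gene is the sum over its coding transcripts. Read depth is unknown, so no counting error can be given. In the check of the cell type, all 16 pluripotency genes were measured, with mean exon values from 65.6 to 5577, while of 10 fibroblast genes 5 were listed at 0 in both libraries and the highest, Thy1, had 10.2. Of 12 genes of differentiated lineages 3 were listed at 0, and the highest was Pax6 with 69.6.

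Levels differed widely among the members. Trp53 was the highest, with 2661 in labeled and 7181 in unlabeled RNA, a mean above that of 99.4% of the coding genes tested. Of its 2 inhibitors, Mdm4 had 903.05 in labeled and 1309 in unlabeled RNA, second to Trp53 in both. Mdm2 had 559.2 and 585.2, next after Mdm4 in labeled RNA and below Zmat3 and Ccng1 in unlabeled RNA. The 4 coding transcripts of Trp53 had much the same values, 598.9 to 770.4 in labeled and 1695 to 1943 in unlabeled RNA, and whether reads they share were counted for each was not tested. The pseudogene Trp53-ps was listed at 0 in both libraries. Taken by the leading transcript alone, the one with the highest mean exon value, Trp53 still had the highest unlabeled value, 1943, and Ccng1 came second with 721.03.

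Among the targets, Ccng1, a cyclin that takes part in the p53 feedback, had 420.4 in labeled and 721.03 in unlabeled RNA. Zmat3, an RNA-binding zinc finger protein, had 274.7 and 766.1, and Cdkn1a, the cyclin-dependent kinase inhibitor p21, had 222.8 and 407.5. Trp53inp1, a promoter of cell death and autophagy, had 53.1 and 156.3. All 4 had a mean exon value above that of at least 70.5% of coding genes.

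The other 3 targets had the lowest values of the members. Btg2, an antiproliferative regulator of mRNA deadenylation, had 20.4 in labeled and 6.60 in unlabeled RNA. Phlda3, a repressor of Akt signaling, had 6.87 and 4.99, and Bbc3, the BH3-only killer protein Puma, had 5.30 and 2.52. Bbc3 exceeded 15.5% of the genes tested, so that Mdm2, Ccng1 and Cdkn1a were abundant in these cells while Bbc3 was scarce. Without replicates, whether neighbours in this order differ cannot be said.

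**Figure D1:**
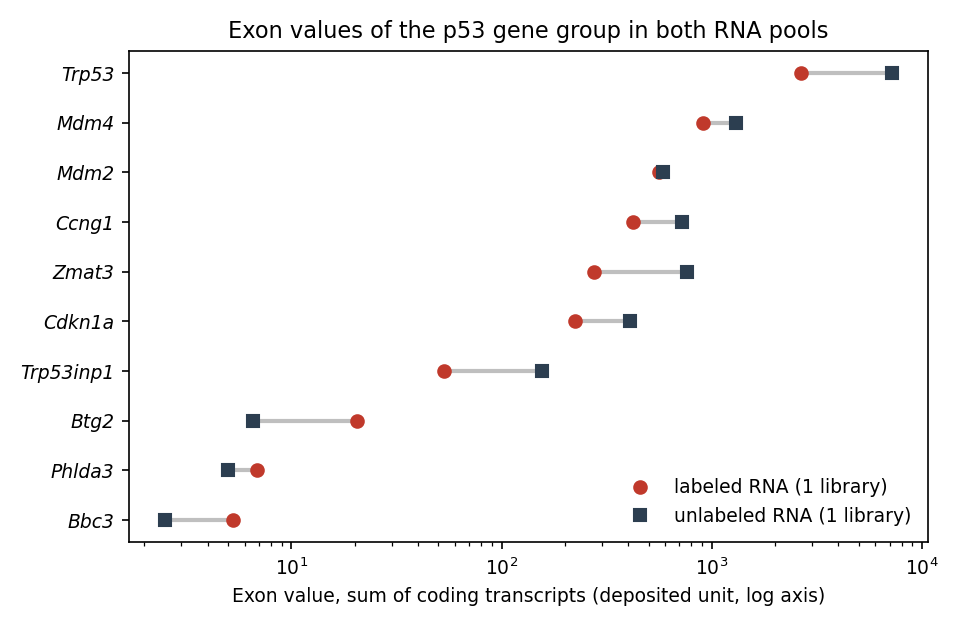
Exon value of each member gene, summed over its coding transcripts, in labeled RNA (circles) and unlabeled RNA (squares), 1 library each, on a log axis in the deposited unit. Trp53, at 2661 and 7181, lies highest, and Btg2, Phlda3 and Bbc3 are the genes whose labeled value is the larger.

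The question put to both libraries was how much of each gene's RNA was new. As the libraries were scaled separately, the labeled over unlabeled exon value of a gene was read only against the median coding gene, whose ratio was 0.863. Scaling to exon rows alone would move that median by 0.15 on the log2 scale and leave values relative to it nearly in place. Ratios were taken as log2((labeled + 1)/(unlabeled + 1)), which pulls low genes toward the median.

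Relative to the median gene, Btg2 was the most weighted to new RNA, with a ratio 3.27 times the median, above 90.4% of genes. Bbc3 followed with 2.07 times, from values of 5.30 and 2.52, and Phlda3 with 1.52 times. Mdm2 lay close to the median gene at 1.11 times. Mdm4 (0.799 times), Ccng1 (0.676 times) and Cdkn1a (0.635 times) were moderately weighted to unlabeled RNA. With transcripts of all biotypes counted, Mdm4 lay on the other side of the median gene, at 0.13 on the log2 scale.

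The lowest were Trp53 itself, 0.429 times the median gene, Zmat3 with 0.416 times and Trp53inp1 with 0.398 times, in the lowest 8.84%, 8.05% and 6.99% of genes. A call was set at 2-fold from the median gene. By it, Btg2 and Bbc3, 2 of 10 members, were higher in labeled RNA, where 20.5% of all genes were. Trp53, Zmat3 and Trp53inp1, 3 of 10, were lower, where 14.0% of all genes were. The first share is at the background and the second above it by fewer than 2 genes, and the median of the 10 genes was -0.44 on the log2 scale.

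The call of Bbc3 rests on low values and on the choice of reference genes. Its centred log2 ratio was 1.05, and it was 0.42 with a pseudocount of 10 and 0.84 with no minimum exon value, while a minimum of 10 leaves the gene out. Btg2 stayed past 2-fold in all 8 other settings, at 1.00 on the log2 scale in the lowest.

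**Figure D2:**
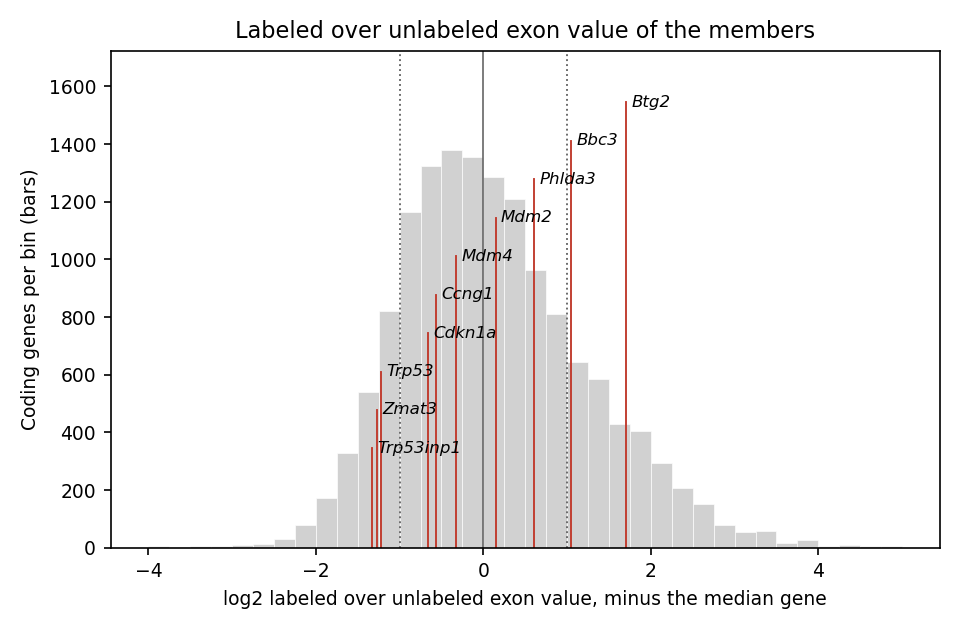
Distribution over 14493 coding genes (bars) of the log2 labeled over unlabeled exon value minus that of the median gene, with each member as a red line whose height only separates the names. Dotted lines mark 2-fold, the end bars hold all genes beyond the axis, and Btg2 and Bbc3 lie beyond the upper line while Trp53, Zmat3 and Trp53inp1 lie beyond the lower one.

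As 4sU enters RNA only in place of uridine, the number of uridines in the leading transcript was set beside these ratios. Across the genes tested, transcripts in the decile with the fewest uridines had a median 0.50 above the median gene on the log2 scale, and those in the decile with the most lay 0.49 below it. The members ranged from 208 uridines in Cdkn1a-202 and 264 in Phlda3-201 to 1792 in Trp53inp1-201 and 2315 in Zmat3-203. Uridine made up 33.2% of the Trp53inp1 transcript, more than in 99.3% of genes, and 16.4% of that of Bbc3-201, more than in 1.30%.

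The order changed when genes of the same decile of uridine number were the reference, which was tried after seeing the data. Trp53 lay furthest below, at -1.47 on the log2 scale, and Cdkn1a moved past 2-fold, to -1.20. The decile for Cdkn1a was that of Cdkn1a-202, with a median of 0.54. By their own uridine numbers, Cdkn1a-203 (293) falls in a decile with 0.56 and Cdkn1a-201 (461) in a decile with 0.11, a smaller shift. Trp53inp1 and Zmat3 no longer passed it, with -0.84 and -0.77. Btg2 stayed the highest at 1.89, Bbc3 had 0.49, Mdm2 had 0.33 and Phlda3 0.05. The part of uridine number in the ratios was not tested.

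The pentamer ATTTA, which in 3' untranslated regions is the core of elements that speed decay, was counted in the leading transcripts. Cdkn1a-202 held 3 in 308 bases, or 9.74 per kilobase, more than 98.6% of the 13048 genes with such a region, and its annotated region is short. Mdm2-201 held 8 in 1335 bases, or 5.99 per kilobase, more than 95.1%. Btg2-201 held 5 in 2199 bases, Trp53-203 held 1 in 441, and Bbc3 and Phlda3 held none, as did 40.0% of genes. Per kilobase, Btg2 and Trp53 both had 2.27, Ccng1 had 3.45, Mdm4 3.31, Trp53inp1 1.81 and Zmat3 1.21, against a median of 1.03 over genes. The value of Mdm4 is 1 pentamer in the 302 bases of Mdm4-201. That transcript, with exon values of 252.9 and 384.4, leads only narrowly over Mdm4-210, with 271.75 and 353.0. Mdm4-210 has 7105 bases against 1914, and 2164 uridines against 512, and its region was not counted.

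The intron to exon ratio is higher where more of a gene's RNA is unspliced. In labeled RNA the 9 members with all values above 0 had a median ratio of 0.408, and the 13026 genes of the same kind had 0.577 (quartiles 0.297 and 1.13). In unlabeled RNA the medians were 0.0407 and 0.122 (quartiles 0.0488 and 0.346). All 9 had a higher ratio in labeled than in unlabeled RNA, as did all but 9.03% of genes. The tenth member, Phlda3, had an intron value of 1.22 in labeled RNA and was listed at 0 in unlabeled RNA.

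The negative regulator Mdm2 had the lowest labeled ratio, 0.154, above that of 11.1% of genes, with intron values of 86.3 in labeled and 23.8 in unlabeled RNA. Trp53 had 0.183 in labeled and 0.0207 in unlabeled RNA, from intron values of 486.7 and 148.8. Both genes thus carried little intron signal for their exon signal in labeled RNA. These labeled ratios became 0.284 for Trp53 and 0.174 for Mdm2 when leakage of unlabeled RNA was subtracted from the labeled values. Mdm4 had 0.406 in labeled and 0.146 in unlabeled RNA, and its leading transcript had 0.298 and 0.109.

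Of the targets, Ccng1 had 0.219 in labeled and 0.0216 in unlabeled RNA. Cdkn1a had 0.408 and 0.0288, a fold of 14.2 between the libraries, and Zmat3 had 0.548 and 0.0330, a fold of 16.6. Both ratios were lower in the leading transcript than in the gene sum. By the leading transcript alone Cdkn1a had 0.157 in labeled and 0.0221 in unlabeled RNA, and Zmat3 had 0.360 and 0.0240. The fold for Cdkn1a was thus smaller there than in the gene sum. In Zmat3 the gene sum includes Zmat3-202, with exon values of only 2.18 in labeled and 4.05 in unlabeled RNA. Its labeled intron value was 51.8, of 150.6 for the gene. Zmat3-201 had a labeled ratio of 0.365, close to that of the leading transcript. Btg2, a gene of 2 exons, had an intron value of 14.1 in labeled and 0.77 in unlabeled RNA, and ratios of 0.689 and 0.117.

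Trp53inp1 and Bbc3 had more intron than exon signal in labeled RNA, with ratios of 2.18 and 2.58. That is 2 of 9 members, where 28.9% of genes had a labeled ratio of 1 or more. In unlabeled RNA Trp53inp1 had 0.118, an intron value of 18.5 against 115.7 in labeled RNA. Bbc3 stayed at 1.18, so its introns exceeded its exons in both pools, at values of 13.7 and 2.97 for introns.

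**Figure D3:**
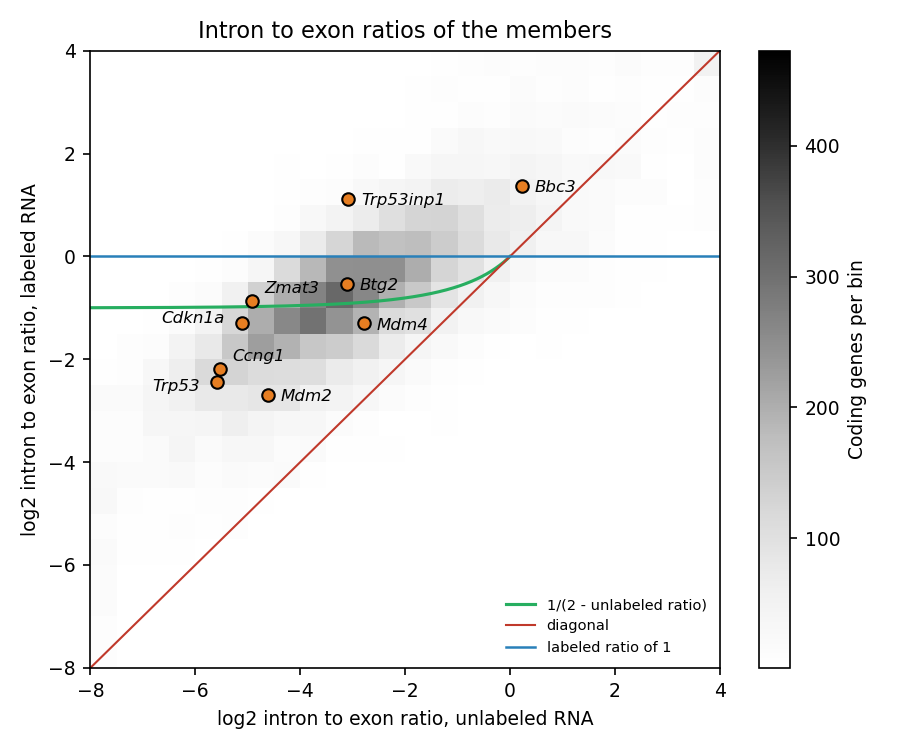
Intron to exon ratio in unlabeled (x) and labeled RNA (y), log2 axes, for 13026 coding genes (grey, darker for more genes per bin, edge bins hold those beyond) and for the 9 members with all values above 0 (orange). Below the green line the model of RNA dynamics has 2 solutions or none, above the blue line and below the red diagonal it cannot hold, and Trp53inp1 and Bbc3 lie above the blue line.

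The values of single isoforms were then compared within genes. The coding transcripts of Trp53 had labeled over unlabeled exon values between 0.349 and 0.426, and those of Mdm2 had 0.960 and 0.951. Of the Cdkn1a starts, 2790 bases apart, the upstream one, whose window is printed above, gives Cdkn1a-202 and the downstream one Cdkn1a-201. Cdkn1a-202 had exon values of 86.4 in labeled and 171.6 in unlabeled RNA, and Cdkn1a-201 had 48.2 and 69.5. By exon value the transcript from the start next to the match was thus the higher in both libraries. By intron value Cdkn1a-201 was the higher, with 17.3 in labeled and 5.13 in unlabeled RNA against 13.6 and 3.79. Cdkn1a-203, which starts inside the gene, had 88.2 and 166.4, and its intron value in labeled RNA, 59.9, was the highest of the 3. RSEM divides reads among isoforms that share exons by a model. AC167363.2, an annotated transcript of undetermined kind, overlaps the start of Cdkn1a-201 on the other strand, and since the sources used here do not say whether strand was used, reads of the pair cannot be told apart.

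Transcripts of the same genes that GENCODE does not call coding were summed by biotype, and the sums furthest from the coding ratio were the retained-intron transcripts of Zmat3 and Mdm4. The retained-intron transcript of Zmat3, Zmat3-204, had 31.9 in labeled and 3.78 in unlabeled RNA, a ratio of 8.44, where the coding sum had 0.359. In Mdm4 the 5 retained-intron transcripts had 1346 in labeled and 627.6 in unlabeled RNA, a ratio of 2.15 against 0.690 for the coding sum. Within them, Mdm4-211 had 493.2 and 135.2, a ratio of 3.65, and Mdm4-209 had 485.2 and 164.7, a ratio of 2.95. The 3 others had 2.60, 2.33 and, for Mdm4-204, 0.609. Such a transcript keeps bases that the coding transcripts splice out.

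Other noncoding transcripts of the members leaned to labeled RNA in some genes and not in others. In Mdm2 the 3 retained-intron transcripts together had a ratio of 0.970, although the shortest, Mdm2-208, had 21.4 in labeled and 1.51 in unlabeled RNA, a ratio of 14.2. The nonsense-mediated decay transcript of Mdm2, Mdm2-209, had 296.2 in labeled and 279.95 in unlabeled RNA, a ratio of 1.06 against 0.956 for the coding sum. The 2 such transcripts of Mdm4 together had 0.688 against 0.690. In Trp53inp1, 3 processed transcripts had a joint ratio of 0.916 against 0.340, with Trp53inp1-204 at 2.62, and counting all biotypes moved this gene from -1.33 to -0.41 on the log2 scale, so that it no longer passed 2-fold.

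**Figure D4:**
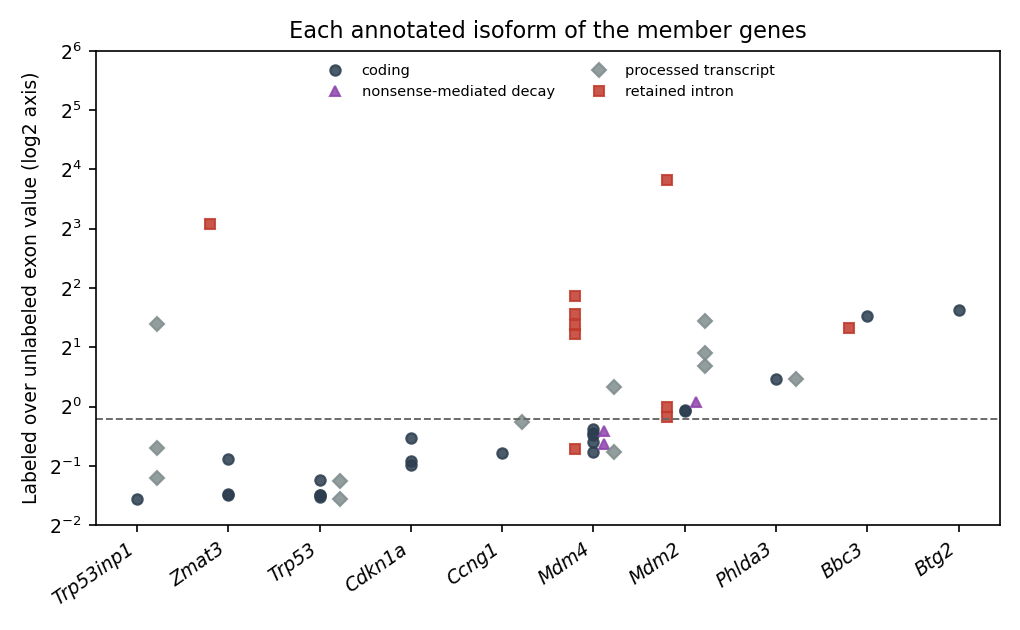
Labeled over unlabeled exon value (log2 axis) of each annotated transcript of the member genes with both values above 0, by biotype, genes in order of their coding ratio. The dashed line is the median coding gene, at 0.863, and the retained-intron transcripts of Zmat3 and most of those of Mdm4 lie above the coding ones.

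Rates were computed with the published single-sample model, in which premature RNA is processed and mature RNA degraded at constant rates, from the ratios of the leading transcript of each gene. Of the 10 members, 7 had ratios that the model allows. Trp53inp1 and Bbc3 had labeled ratios above 1, and Phlda3 had no unlabeled intron value. Only Btg2 had an exact solution, with a degradation half-life of 27.8 min. For the other 6 the model's reduced equation was minimised instead, as for 62.9% of 8913 compatible genes. The fitted ratios of these 6 do not meet the measured ones. The distance between them, on the natural log scale, ran from 0.07 for Zmat3 to 1.31 for Mdm2.

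These half-lives were 31.3 min for Mdm2, 27.1 min for Cdkn1a, 21.8 min for Trp53, 17.9 min for Ccng1, 16.3 min for Mdm4 and 4.95 min for Zmat3, and the median of all compatible genes was 19.6 min (quartiles 10.6 and 40.6). The half-life of Btg2 lay above 63.5% of genes although its exons were the most weighted to new RNA. Zmat3, weighted to old RNA, lay above only 7.73%. The ratios of exon values and these half-lives therefore ordered the members differently.

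The values depend on how the model is applied. When both variables were fitted, the 6 genes without a solution had half-lives from 2.34 min for Mdm4 to 4.41 min for Trp53. The distance to the measured ratios was then smaller for each of the 6, from 0.03 for Zmat3 to 0.95 for Mdm2. With the second library read as total RNA, as one of its labels has it, Trp53 had 61.1 min, Ccng1 67.2 min and Zmat3 107.9 min, and Zmat3 thus went from the lowest of the members to the highest. From the ratios of gene sums Zmat3 had 36.9 min, Mdm4 9.43 min and Cdkn1a 8.76 min. For Cdkn1a the model had 2 solutions there, and that with the faster processing relative to degradation was taken. With leakage of unlabeled RNA subtracted from the labeled values, Zmat3 had 69.0 min, Ccng1 11.6 min and Trp53 9.69 min. Btg2 had 27.8 to 63.6 min, on an unlabeled intron value of 0.77. As it had an exact solution and 1 coding transcript, fitting both variables or summing the gene could only return 27.8 min. With leakage subtracted Btg2 had 34.7 min, and with the second library read as total RNA it had 63.6 min.

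**Figure D5:**
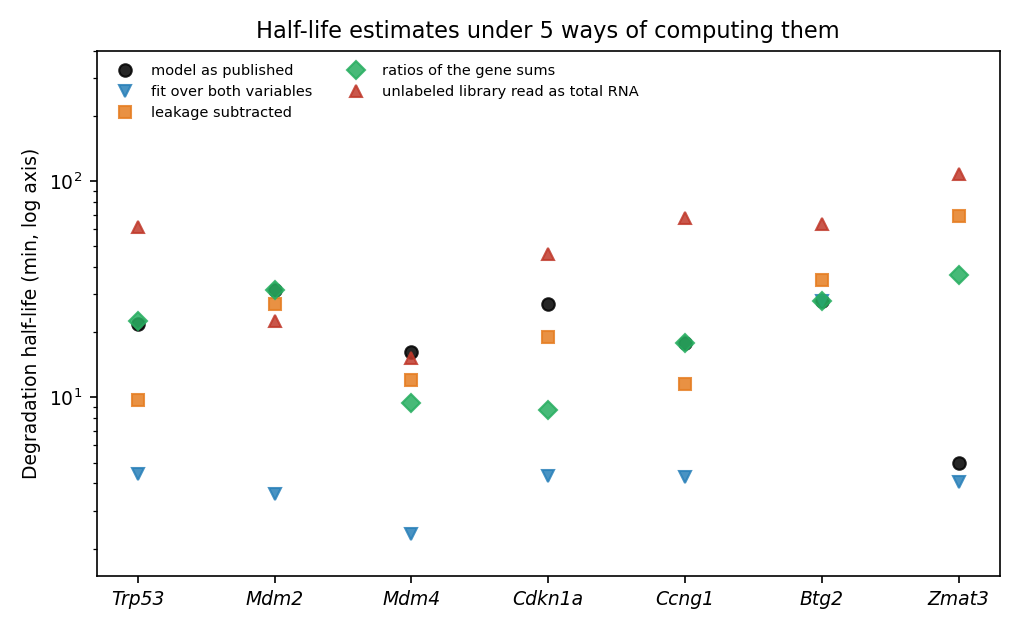
Degradation half-life in minutes (log axis) of the 7 members with compatible ratios, computed in 5 ways from the same 2 libraries. A labeled ratio of 1 or more or an absent intron value left out the other 3 genes. Zmat3 spans 4.05 to 107.9 min, Mdm4 2.34 to 16.3 min, and Btg2 27.8 to 63.6 min. For Btg2 the fit over both variables and the gene sums repeat the published model by construction.

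Further genes of the pathway were taken from a list of 38 other targets and one of 30 regulators and relatives of p53. Of the targets 35 passed the minimum, 16 above and 19 below the median gene. By the 2-fold rule 6 were higher in labeled RNA and 7 lower, beside 20.5% and 14.0% of all genes, and their median was -0.08 on the log2 scale. The genes named are the 3 highest and 3 lowest with a mean exon value of at least 10. Bax, a pore-forming killer protein, had 137.6 in labeled and 31.5 in unlabeled RNA, 4.94 times the median gene. Rps27l, a ribosomal protein paralog whose reads can be shared with close copies, had 2236 and 770.7, or 3.36 times. Pidd1, an activator of caspase-2, had 52.3 and 22.3, or 2.65 times. The lowest were Steap3, a metalloreductase, with 12.9 and 78.2, or 0.204 times, Ei24 with 203.9 and 706.4, or 0.336 times, and Pmaip1, the BH3-only protein Noxa, with 40.5 and 140.9, or 0.339 times.

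Of the regulators 29 passed, and only 5 lay above the median gene. By the 2-fold rule 3 were higher in labeled RNA and 9 lower, beside 20.5% and 14.0% of all genes, with a median of -0.65 on the log2 scale. The number lower ranged from 7 to 13 over the other settings. Among genes with a mean exon value of at least 10, the highest were the ribosomal proteins Rpl11 and Rpl5, which bind Mdm2, at 2.75 and 2.13 times the median gene, and Banp at 1.88 times. Rpl11 and Rpl5 have close copies that can share their reads. The lowest were Daxx at 0.313, Usp10, a deubiquitinase of p53, at 0.314, and Crebbp, an acetyltransferase that acts with p53, at 0.348 times. Set against genes of like uridine number, 1 regulator rather than 3 was higher.

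The genes most like Trp53 over the exon ratio, both intron to exon ratios and the mean exon value, each on the log2 scale in these 2 libraries, were Papola, Trip12 and Dnmt3b, at distances of 0.242, 0.452 and 0.455 among 9821 genes. Papola had exon values of 2958 in labeled and 8162 in unlabeled RNA, near those of Trp53. Those most like Mdm2 were Atp5f1, Csnk2b and Gnl3, at distances of 0.324, 0.412 and 0.429.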

How the data were processed

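Per the labels and the study's methods, 4sU-labeled and unlabeled RNA of 1 culture were separated, sequenced and aligned; the submitters' processing notes name STAR 2.5.0 and RSEM, on GRCm38. The authors deposited exon and intron abundances per transcript as another unit than counts: they call it TPM, but each column sums to 10000000, which is 10 times a TPM total. Depth and strand use are not given in the sources used here.

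Transcripts were assigned to genes with GENCODE M21, exon values of coding transcripts were summed, and log2((labeled + 1)/(unlabeled + 1)) was set against the median of 14493 genes with a mean exon value above 1. With 1 library per pool no test was run. Half-lives followed the study's equations for a labeling time of 10 min, with Python 3.11.15, numpy 2.4.6, pandas 2.3.3 and scipy 1.17.1. Solver and ratio were tested on simulated data. For the solver these data came from the model itself without noise. Ratios without a solution, as 6 members had, were therefore not covered by that test. Named genes are the 10 members, the 3 highest and 3 lowest of each pathway list with a mean exon value of at least 10, and the 3 genes nearest to Trp53 and to Mdm2. Members and lists were chosen with earlier results of these data known. Promoter windows are from RefSeq, GRCm38.p6. The alternatives tried concern the pseudocount, the minimum, the transcripts summed, leakage of unlabeled RNA, the reference genes and the solver.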

Additional observations from a re-analysis of the deposited data

How the results depend on the processing

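No paired analysis was possible because each pool has 1 library and no test was run. As no replicate gives a spread, a value was taken as moved when it changed by over 1.5-fold. Of the group values and counts, 79 results under alternatives stayed within that and 8 moved. The number of members at least 2-fold above the median gene, 2, was 1 with a pseudocount of 10, with no minimum exon value, with a minimum of 10, and within deciles of uridine number, the last chosen after seeing the data. There the number of regulators so far above went from 3 to 1. With a minimum of 10, 1 member rather than 2 had a labeled intron to exon ratio of 1 or more. The median half-life of the members, 21.8 min, was 4.28 min when both variables were fitted and 61.1 min with the second library read as total RNA. For single genes, 127 values stayed and 32 moved. The values that stayed include some that the alternative could not move. No leading transcript of the members had 2 solutions, so taking the smaller one changed nothing. Subtracting leakage left the unlabeled ratios as they were. No value counted as reversed, but Mdm2, at 0.15 on the log2 scale, had -0.07 with no minimum exon value and Mdm4, at -0.32, had 0.13 with transcripts of all biotypes, each in 1 of 8 settings, and 8 members kept their side of the median gene in every setting that gave a value. The median of the other targets, -0.08, was 0.01 with a minimum of 10 and 0.10 within deciles of uridine number, and stayed negative in the other settings. Depth is unknown, so the precision of the low values of Bbc3, Phlda3 and Btg2 cannot be given.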
